A study of Mus musculus with 12 samples.

Results

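The third of 3 replicate experiments on mouse bone marrow cultures was set against the first and second experiments: 4 of the 12 libraries carried the number 3, and the other 8 carried the number 1 or 2. They were chosen by the number at the end of the library name, with no use of expression values. The series describes independent experiments and its labels number the libraries, but no label says that a number marks an experiment, so calling libraries of 1 number an experiment is an inference. It rests on the libraries themselves, because libraries sharing a number deviated from their group means together in all 18 pairs (r between 0.20 and 0.86). Each experiment held 1 library of each of 4 groups. NUPwt_sh_69 and NUPwt_sh_70 carried the NUP98-NSD1 fusion with the hairpins shNizp1#1 and shNizp1#2. NUPwt_plko carried NUP98-NSD1 with the control hairpin sh#ctrl, and MSCV_plko carried the empty retroviral vector MSCV with the same control hairpin. Cells sorted as c-Kit positive, Sca-1 positive and lineage negative were cultured in RPMI with 20 ng/ml IL-3, 20 ng/ml IL-6 and 100 ng/ml SCF, transduced by retrovirus, selected with geneticin and then given pLKO.1-puro hairpins. NUP98-NSD1 joins a nucleoporin to a histone methyltransferase and is found in acute myeloid leukaemia. The sources used here name no animals, ages or time in culture. The fusion was expressed from a retroviral vector, and no label describes single clones.

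Bone marrow progenitors held in IL-3 and SCF commonly give rise to mast cells, granular cells that carry the receptors Kit and Fcer1a and store proteases and histamine. Early in such cultures neutrophils, macrophages and eosinophils are also present, and they usually wane as mast cells take over. Mast cell granules are thought to mature along with the culture, and different proteases mark mucosal and connective tissue mast cells. HoxA genes, which keep progenitors self-renewing, are known targets of NUP98 fusions.

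Total counts were 4468392 to 6842589 in experiment 3 and 3586538 to 6454564 in experiments 1 and 2. Levels are given in CPM, the counts scaled to library size by TMM, so 3 counts equal 0.417 to 0.837 CPM in a library. Values of experiment 3 are listed throughout in the order NUPwt_sh_69, NUPwt_sh_70, NUPwt_plko and MSCV_plko. The knockdown target Nizp1, listed as Zkscan17, had 30.4, 26.997, 61.8 and 68.2 CPM in experiment 3. In that order it had 26.2, 17.6, 49.4 and 56.96 CPM in experiment 2 and 34.97, 29.03, 62.6 and 64.2 CPM in experiment 1. Both hairpin libraries lay below both control-hairpin libraries in every experiment. All 12 libraries expressed mast cell genes: Cpa3, the mast cell carboxypeptidase, had 20071, 20451, 21773 and 21123 CPM in experiment 3 and 19341 to 30645 CPM in experiments 1 and 2. Kit, listed here with the mast cell receptors, had 1930.5 to 2584 CPM in experiment 3. Of the stem and progenitor genes, Cd34 was abundant (1180.1 to 2022 CPM in experiment 3), whereas Esam had at most 0.196 CPM in experiment 3. The libraries therefore carry mast cell RNA in quantity. Stem and progenitor genes ranged in experiment 3 from abundant (Cd34) to near 0 (such as Esam, Myct1, Prom1 and Flt3). Others, among them Hlf, Erg, Adgrg1 and Ly6a, lay between, as given below. Of the 19 genes in the list, 14 or 15 had a count in each library of experiment 3.

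A difference was called where the edgeR adjusted p, over all 11994 genes tested, was under 0.05, with the 4 groups as a block. Experiment 3 had 1426 genes called higher (11.9% of the genes tested) and 1967 called lower (16.4%). The libraries did not overlap for 801 genes that were higher (6.68%) and 1104 that were lower (9.2%) in experiment 3. Lower genes had larger differences. Among called genes, 955 were lower by at least 1 on the log2 scale and 141 were higher by as much, and at 3 or more the counts were 320 lower and 6 higher. Over all genes the median difference was -0.0015. If a number marks an experiment, the libraries sharing it are not independent and the comparison is 1 experiment against 2. The p-values measure only the spread between libraries. The number of calls depended most on the libraries of experiment 3: 383 higher and 826 lower genes were left without NUPwt_sh_70 of experiment 3, 584 and 1174 without NUPwt_sh_69, and 629 and 1011 without NUPwt_plko. Of the 98 called genes that the naming rule picked, 52 kept their call in each of the 12 fits that left out 1 library. Where a named gene did not, the libraries are given.

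Set against each experiment alone, experiment 3 had 1235 genes higher (10.3%) and 1903 lower (15.9%) than experiment 1. It had 2906 higher (24.2%) and 3043 lower (25.4%) than experiment 2. These contrasts share the libraries of experiment 3, and 900 genes (7.5%) were called higher and 1460 (12.2%) lower in both of them and against the 2 experiments together. Experiments 1 and 2 were not alike either: 1603 genes were higher (13.4%) and 1509 lower (12.6%) in experiment 2 than in experiment 1. That last contrast gave 2050 calls without NUPwt_plko of experiment 1, 2029 without NUPwt_sh_69 and 1835 without NUPwt_sh_70 of experiment 1, and 1672 without NUPwt_sh_70 of experiment 2, against 3112 with all libraries. Without NUPwt_sh_70 of experiment 3, the contrast of experiments 3 and 1 gave 1832 calls, against 3138 with all libraries. No gene was called for a different experiment effect in fusion cells and empty-vector cells by edgeR (0 called, 0% of genes tested, with 488 at an unadjusted p under 0.05). The other tools gave 17 calls (DESeq2) and 0 calls (limma-voom), with 400 and 424 genes at an unadjusted p under 0.05. In experiment 3 only MSCV_plko stands for the empty vector, which limits this test. Few calls therefore do not show that the experiment effect was alike in fusion and empty-vector cells.

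Neutrophil transcripts were almost missing from experiment 3. All 23 tested genes of the 24 in the neutrophil list were called lower, against 16.4% of all genes tested, and none higher, with a median log2 difference of -7.77. Of these, 18 had 3 or fewer counts in experiment 3 and passed the filter on low counts only through experiments 1 and 2. The share of called members is thus partly set by the filter. Ngp, a secondary granule protein (chr9:110419747-110423012 in mm10, plus strand), had 0.278, 0, 0.196 and 0 CPM in experiment 3, 3 counts in all, against a lowest value of 22.1, a median of 92.2 and a highest of 301 CPM in experiments 1 and 2. These 5450 counts in experiments 1 and 2 make a ratio of 1077 (95% exact interval 368 to 5224). Every library of experiment 3 was below the lowest of the other 8 (edgeR adjusted p = 0.0041). Ngp, Camp, Ltf, Hp, S100a8, S100a9, Lcn2 and Mmp8 were called with edgeR but not with limma-voom. Camp, the cathelicidin of the same granules (chr9:109847379-109849617, minus strand), had no count in any library of experiment 3, against a lowest value of 3.33, a median of 14.7 and a highest of 40.3 CPM in experiments 1 and 2. It was at least 163-fold lower, taking 3 counts over the 4 libraries as the limit (edgeR adjusted p = 0.016). Lactoferrin (Ltf) and haptoglobin (Hp) also had no count in experiment 3. They reached 19.5 to 184 CPM and 7.06 to 67.7 CPM in experiments 1 and 2 and were at least 754-fold and 304-fold lower.

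The calprotectin genes S100a8 and S100a9, the most abundant proteins of neutrophil cytosol, had 0.139, 0, 0 and 0.434 CPM and 0.278, 0.440, 0.785 and 0 CPM in experiment 3. In experiments 1 and 2 they had 37.8 to 333 CPM (median 104) and 52.8 to 563 CPM (median 184). The siderophore binder Lcn2 had at most 0.392 CPM in experiment 3 against 10.7 to 74.2 CPM (median 22.8) in experiments 1 and 2. The collagenase Mmp8 kept the largest remainder of the list, 8.89, 8.80, 1.96 and 1.74 CPM in experiment 3, against 33.1 to 381 CPM (median 89.97) in experiments 1 and 2 (log2 difference -4.75, edgeR adjusted p = 0.010). The whole list summed to 12.2, 11.3, 3.92 and 3.04 CPM in experiment 3, against 995 to 1887 CPM in experiment 2 and 263 to 513 CPM in experiment 1, with no overlap. The sum was thus lowest in experiment 3 and highest in experiment 2, and 19 members were called higher in experiment 2 than in experiment 1. Since 18 members had 3 or fewer counts in experiment 3, the list median was also computed with the bound of 3 counts, which gave -7.35. Calls numbered 15 without NUPwt_sh_70 of experiment 3 and 8 with limma-voom. Hp lost its call without NUPwt_sh_69 of experiment 2. In bulk RNA, fewer cells of a type and less of its RNA per cell cannot be told apart.

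**Figure D1:**
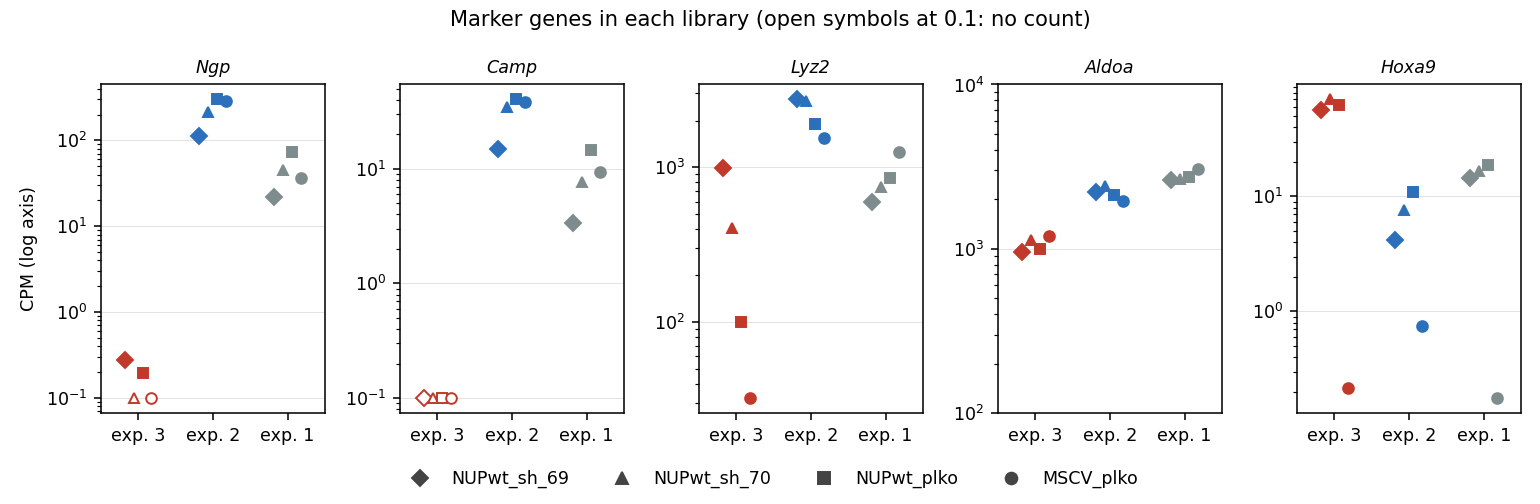
CPM (log axis) of Ngp, Camp, Lyz2, Aldoa and Hoxa9 in each library, with experiment 3 on the left (red), experiment 2 in the middle (blue) and experiment 1 on the right (grey); symbols give the group and open symbols at 0.1 stand for no count. Ngp and Camp are at 0 or nearly so in all 4 libraries of experiment 3, Aldoa is below all other libraries there, Lyz2 overlaps, and Hoxa9 is high in the 3 fusion libraries of experiment 3 but not in MSCV_plko.

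Primary granule genes of immature granulocytes fell as well, with 1 exception. Myeloperoxidase (Mpo) had 0, 4.70, 3.34 and 1.95 CPM in experiment 3 against 41.4 to 469 CPM (median 148) in experiments 1 and 2 (log2 difference -6.16 ± 1.12 (SE), edgeR adjusted p = 0.0065). Proteinase 3 (Prtn3) had 0.278, 2.79, 0.785 and 0.651 CPM in experiment 3 against 14.7 to 157 CPM (median 54.9) in experiments 1 and 2. Cathepsin G (Ctsg), which mouse mast cells express too, went the other way, with 982, 674, 710.0 and 461 CPM in experiment 3 against 134 to 295 CPM (median 213) in experiments 1 and 2 (log2 difference 1.74 ± 0.23 (SE), edgeR adjusted p = 0.0011). All 4 libraries were above the other 8 for Ctsg, and below them for the 5 other members of the list, as was the case for 9.2% of all genes tested. Limma-voom called 1 of these 5 lower.

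Monocyte and macrophage genes were lower by a smaller margin and less uniformly. Of 28 tested genes, 21 were called lower, against 16.4% of all genes tested, and none higher, with a median log2 difference of -2.86. Lysozyme (Lyz2, chr10:117277331-117282321, minus strand), made by monocytes and granulocytes, had 986, 407, 100.1 and 32.4 CPM in experiment 3 against a lowest value of 596, a median of 1395 and a highest of 2740.4 CPM in experiments 1 and 2. Both Nizp1 hairpin libraries had more of it in experiment 3 than the control-hairpin libraries, and the NUPwt_sh_69 value lay inside the range of the other 8. The difference was not called (log2 difference -2.63 ± 0.89, edgeR adjusted p = 0.058). It was called without NUPwt_sh_69 of experiment 3 or of experiment 1, by DESeq2 and limma-voom, with no filter on low counts, and without experiment 1.

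The macrophage elastase Mmp12 had 177, 73.5, 28.5 and 42.1 CPM in experiment 3 against 137 to 909.6 CPM (median 449) in experiments 1 and 2 (log2 difference -2.79, edgeR adjusted p = 0.020). The fractalkine receptor Cx3cr1 had 192, 161, 154 and 232 CPM against 228 to 319 CPM (median 275) and the cathepsin Ctss had 123, 48.3, 11.97 and 8.04 CPM against 125 to 600.0 CPM (median 294) (experiment 3 first in both). The ranges of Mmp12 and Cx3cr1 overlapped and those of Ctss did not. The monocyte antigen Ly6c2 had 1 count in experiment 3 against 2.47 to 132 CPM (median 26.2) in experiments 1 and 2, a ratio of 858 (95% exact interval 154 to 33907), but reads of Ly6c2 and its near-identical neighbour Ly6c1 may be shared. Ly6c1 had 0, 0.147, 0 and 0 CPM in experiment 3 against 1.41 to 69.7 CPM (median 15.3) in experiments 1 and 2. The alternatively activated macrophage enzyme arginase (Arg1) had 0.278, 1.32, 0 and 0 CPM in experiment 3 against 65.9 to 356 CPM (median 131) in experiments 1 and 2 (log2 difference -8.56, edgeR adjusted p = 4.4e-04).

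The monocyte list summed to 2449, 1149, 664 and 594 CPM in experiment 3, against 4618 to 8286 CPM in experiment 2 and 1996 to 3779 CPM in experiment 1. NUPwt_sh_69 of experiment 3 lay inside the range of experiment 1 and the other libraries of experiment 3 lay below it. Of the list, 12 genes were called lower against experiment 1 and 27 against experiment 2. The count of 21 dropped to 12 without NUPwt_sh_69 of experiment 2, to 10 without MSCV_plko, 8 without NUPwt_plko and 6 without NUPwt_sh_70 of experiment 3, to 10 without experiment 2, 11 without the empty-vector libraries and 9 with limma-voom. Calls of single genes were likewise lost: Mmp12 without NUPwt_sh_70, NUPwt_plko or MSCV_plko of experiment 3 or NUPwt_sh_69 of experiment 2, Ctss without NUPwt_sh_70, NUPwt_plko or MSCV_plko of experiment 3 or NUPwt_sh_69 or NUPwt_sh_70 of experiment 2, and Ly6c1 and Ly6c2 without any library of experiment 3.

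**Figure D2:**
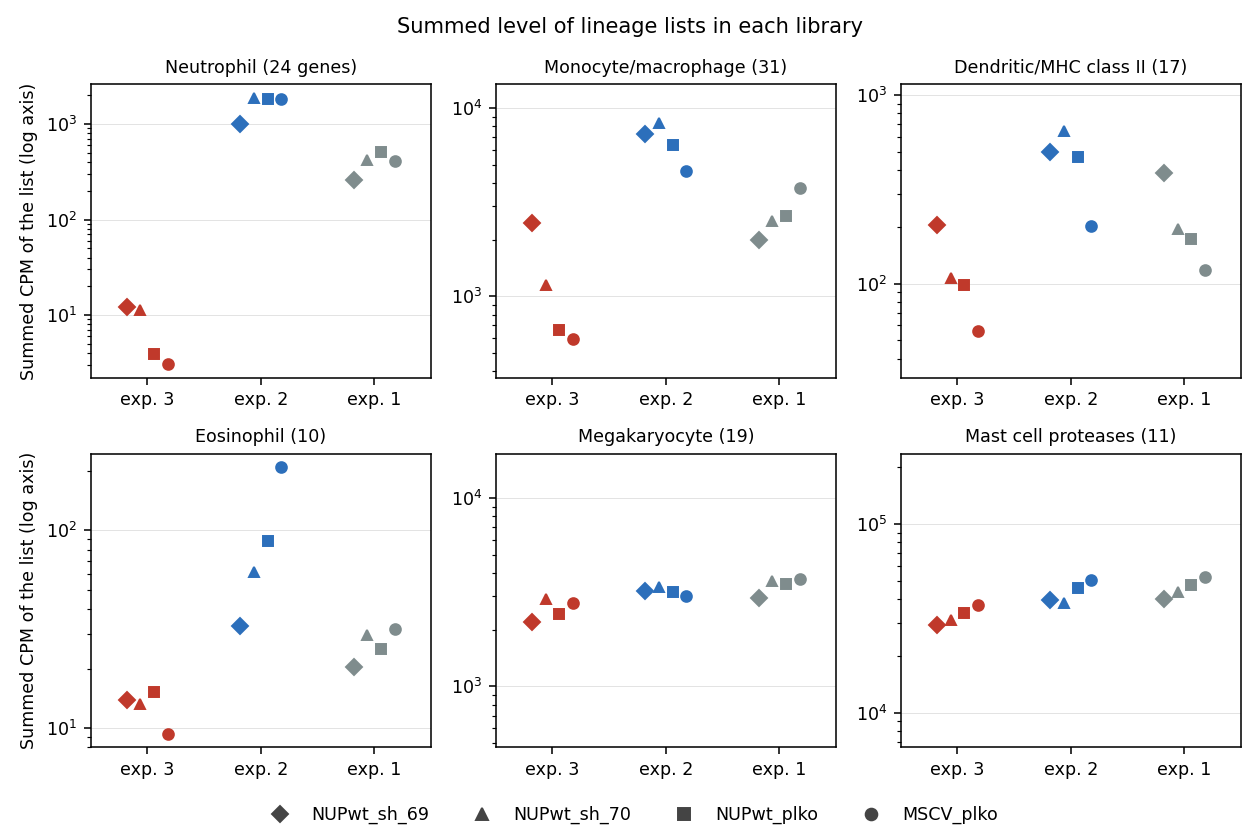
Summed CPM (log axis) of 6 gene lists in each library; the number of genes in the list stands in brackets, experiment 3 is on the left of each panel, and symbols give the group. The neutrophil list sums to 3.04 to 12.2 CPM in experiment 3 and to 263 CPM or more elsewhere. The mast cell protease sum differs by less but is also lower in experiment 3 without overlap (29240 to 37067 against 38122 to 52710.5 CPM).

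Of the antigen presentation genes, 5 of 10 tested were called lower, against 16.4% of all genes tested, and none higher. The invariant chain Cd74 had 7.92, 13.5, 4.12 and 5.21 CPM in experiment 3 against 21.9 to 279 CPM (median 60.5) in experiments 1 and 2 (log2 difference -3.80, edgeR adjusted p = 0.016), with no overlap. The class II chains H2-Ab1 (38.5, 30.5, 31.4 and 19.1 CPM in experiment 3) and H2-Aa (2.36, 5.87, 2.16 and 0.869 CPM in experiment 3) overlapped with the 34.3 to 90.4 CPM and 4.41 to 105 CPM of experiments 1 and 2. Cd74 lost its call without NUPwt_sh_69, NUPwt_sh_70 or NUPwt_plko of experiment 3, H2-Ab1 without NUPwt_sh_70 or NUPwt_plko of experiment 3, and H2-Aa without any library of experiment 3 or NUPwt_sh_69 or NUPwt_sh_70 of experiment 2. The list had 3 calls without MSCV_plko of experiment 3, 1 without NUPwt_sh_69, none without NUPwt_sh_70 or NUPwt_plko, 3 without NUPwt_sh_70 of experiment 2, 2 without the empty-vector libraries, 8 without experiment 1 and 1 with limma-voom.

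Of 8 tested eosinophil genes, 4 were called lower, against 16.4% of all genes tested, and none higher. Major basic protein (Prg2) had 0, 0, 0.196 and 0 CPM in experiment 3 against a lowest value of 1.90, a median of 8.53 and a highest of 125 CPM in experiments 1 and 2, and eosinophil peroxidase (Epx) had 0, 0, 0.196 and 0.217 CPM against a lowest value of 0.238, a median of 4.94 and a highest of 43.03 CPM. The highest of the 8 was MSCV_plko of experiment 2 for both genes. The eosinophil lectin Siglecf had 1.11, 0.734, 1.18 and 1.09 CPM in experiment 3 against 1.95 to 8.76 CPM (median 4.69) in experiments 1 and 2 (log2 difference -2.20, edgeR adjusted p = 0.0044). The list median was -5.79, or -4.07 with the 5 members of few counts at their bound. These 5 passed the filter on low counts only through experiments 1 and 2. Prg2 lost its call without NUPwt_plko of experiment 3, and the list had 7 calls without experiment 1 or with no filter on low counts and 2 with limma-voom.

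Of 5 tested basophil genes 3 were called lower, against 16.4% of all genes tested, and none higher (median log2 difference -1.16). The basophil receptor Cd200r3, which mast cells also carry, had 225, 232, 197 and 400.5 CPM in experiment 3 against 392.3 to 656 CPM (median 538) in experiments 1 and 2 (log2 difference -1.06, edgeR adjusted p = 9.5e-04), with MSCV_plko of experiment 3 inside the range of the 8. The cytokine oncostatin M (Osm) had 98.04, 111, 107 and 107 CPM and the basophil protease Prss34 3.89, 1.61, 3.53 and 0 CPM in experiment 3, against 119.6 to 502 CPM (median 270.1) and 2.85 to 86.8 CPM (median 35.1) in experiments 1 and 2. The basophil protease Mcpt8, with 28.4 to 141 CPM in experiment 3 and 46.5 to 284 CPM in experiments 1 and 2, was not called (log2 difference -1.16, edgeR adjusted p = 0.25). The basophil list kept 1 call without MSCV_plko of experiment 3, and 1 without either hairpin library or NUPwt_plko of experiment 3 or 2. It also kept 1 call without the empty-vector libraries. Osm lost its call without any library of experiment 3 or any library of experiment 2, and Prss34 without any library of experiment 3 or NUPwt_sh_69, NUPwt_sh_70 or NUPwt_plko of experiment 2. Of 11 tested megakaryocyte genes, 7 were called lower, against 16.4% of all genes tested, and none higher (median -1.13). The matrix protein Thbs1 had 6.39, 4.55, 0.196 and 0 CPM in experiment 3 against 34.6 to 262 CPM (median 102) in experiments 1 and 2 (log2 difference -5.38, edgeR adjusted p = 0.0048), and Plek had 448, 532, 525 and 393 CPM against 577 to 946 CPM (median 722), neither with overlap. Von Willebrand factor (Vwf) had 17.5 to 41.04 CPM against 32.6 to 124 CPM and lost its call without any library of experiment 3 or NUPwt_sh_69, NUPwt_sh_70 or MSCV_plko of experiment 2. Itga2b and Gp1ba, which mast cells share with platelets, were not called (log2 difference -0.14, edgeR adjusted p = 0.30 and log2 difference -0.23, edgeR adjusted p = 0.30). Plek lost its call without MSCV_plko of experiment 3, and limma-voom called 4 megakaryocyte genes.

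Markers of other lineages were mostly under the filter on low counts: 2 of 18 erythroid, 1 of 9 B cell, 3 of 11 T and NK cell and 2 of 14 stromal or endothelial genes were tested. Car2, a carbonic anhydrase, had 23.5 to 39.3 CPM in experiment 3 and 15.2 to 39.96 CPM in experiments 1 and 2 and was not called. Blnk, an adaptor of B cells and macrophages, had 2.08, 1.91, 1.96 and 4.99 CPM in experiment 3 against 4.996 to 16.2 CPM (median 8.46) in experiments 1 and 2 (log2 difference -1.86, edgeR adjusted p = 0.0067). The NK granule gene Nkg7 had 0 to 0.833 CPM against 0.714 to 5.41 CPM, overlapped, and lost its call without any library of experiment 3 or NUPwt_sh_69, NUPwt_sh_70 or NUPwt_plko of experiment 2. The T and NK cell list had 2 calls without NUPwt_sh_69 or NUPwt_sh_70 of experiment 1, without experiment 1, in the replicate block, with DESeq2 and with no filter. Tek, a receptor of endothelium, overlapped (4.999 to 28.4 and 6.66 to 18.7 CPM) and was not called.

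HoxA genes were higher in experiment 3, in its libraries with the fusion. Hoxa9 (chr6:52223100-52227370, minus strand) had 55.97, 69.7, 62.8 and 0.217 CPM in experiment 3. In the same group order it had 4.19, 7.57, 10.997 and 0.746 CPM in experiment 2 and 14.5, 16.5, 18.8 and 0.176 CPM in experiment 1. The 3 fusion libraries of experiment 3 were above all others, while MSCV_plko of experiment 3 stayed under 1 CPM like the other empty-vector libraries (log2 difference 2.29 ± 0.37 (SE), edgeR adjusted p = 0.0026). Hoxa10 had 17.6, 16.4, 15.1 and 0 CPM in experiment 3 against 0 to 4.82 CPM (median 2.14) in experiments 1 and 2, and Hoxa7 had 10.97, 15.3, 11.4 and 0 CPM against 0.176 to 4.08 CPM (median 1.49). Their log2 differences were 2.36 and 2.20, and Hoxa7 lost its call without NUPwt_sh_69, NUPwt_sh_70 or NUPwt_plko of experiment 3. All 3 were called higher, against 11.9% of all genes tested, and they were the only tested ones of the 11 in the list, the other 8 staying under the filter. The test of a different experiment effect in fusion and empty-vector cells did not call Hoxa9 (difference of log2 differences 3.27, unadjusted p = 0.15, edgeR), and the single empty-vector library of experiment 3 limits it.

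Stem and progenitor genes had no common direction: 2 of 16 tested were called higher, against 11.9% of all genes tested, and 5 lower, against 16.4% (median log2 difference 0.0096). The higher count does not stand out from all genes. The stem cell factor Hlf had 74.7, 81.7, 104 and 28.4 CPM in experiment 3 against 14.7 to 59.1 CPM (median 29.4) in experiments 1 and 2 (log2 difference 1.15, edgeR adjusted p = 0.023), overlapping, and lost its call without NUPwt_sh_69, NUPwt_sh_70 or NUPwt_plko of experiment 3. The adhesion receptor Adgrg1 had 23.1, 19.7, 17.5 and 11.3 CPM against 5.65 to 13.3 CPM (median 6.63) (log2 difference 1.12, edgeR adjusted p = 0.0019), and the transcription factor Erg 78.9, 65.3, 66.1 and 65.2 CPM against 77.8 to 122 CPM (median 86.7) (log2 difference -0.45, edgeR adjusted p = 0.0065). Prom1 and Flt3, markers of early progenitors, had 0 and 2 counts in experiment 3 and ranged over 0 to 5.59 and 0 to 3.86 CPM in experiments 1 and 2. The list had 1 higher call without NUPwt_sh_69, NUPwt_sh_70 or NUPwt_plko of experiment 3, and 2 lower calls without NUPwt_sh_70 or NUPwt_plko of experiment 3. Higher calls numbered 6 in the replicate block and without experiment 1, 4 without experiment 2 and 7 with no filter on low counts, and lower calls 2 without experiment 2 and 3 without the empty-vector libraries. The surface antigen gene of Sca-1, Ly6a, varied widely (221, 277, 153 and 26.3 CPM in experiment 3, 23.8 to 184 CPM in experiments 1 and 2) and was not called (log2 difference 0.56, edgeR adjusted p = 0.47).

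Of 10 tested mast cell proteases, 3 were called higher, against 11.9% of all genes tested, and 4 lower, against 16.4% (median log2 difference -0.26). The list summed to 29240 to 37067 CPM in experiment 3 and 38122 to 52710.5 CPM in experiments 1 and 2, without overlap. Mcpt1, a chymase of mucosal mast cells, had 25.6, 5.14, 12.95 and 10.6 CPM in experiment 3 against a lowest value of 0.309, a median of 1.43 and a highest of 3.50 CPM in experiments 1 and 2 (log2 difference 3.08 ± 0.39 (SE), edgeR adjusted p = 5.9e-04). Mcpt2, of the same kind, had 151, 56.5, 104 and 101 CPM against a lowest value of 12.1, a median of 27.8 and a highest of 53.5 CPM (log2 difference 1.83 ± 0.29 (SE), edgeR adjusted p = 0.0027), with NUPwt_sh_70 the lowest of the 4 and still above all 8. The chymase Cma1, found in connective tissue mast cells, had 4943, 5974, 7052 and 11911 CPM in experiment 3 against 9419 to 17097 CPM (median 12554) in experiments 1 and 2 (log2 difference -0.87, edgeR adjusted p = 0.0012), and MSCV_plko of experiment 3 lay within the range of the 8. The tryptase Tpsb2 had 773, 832, 262 and 1057 CPM against 1757 to 3605 CPM (median 2636) (log2 difference -1.96, edgeR adjusted p = 0.0029), without overlap, lost its call without experiment 2, and its sister genes Tpsab1 and Tpsg1 differed by -2.22 and -2.20. NUPwt_plko of experiment 3 was lowest of all 12 libraries for Tpsb2 and Tpsab1. Cpa3 was not called (log2 difference -0.27, edgeR adjusted p = 0.10), and Mcpt4, another connective tissue chymase (1349, 851, 1968 and 777 CPM against 493 to 1181 CPM (median 833), log2 difference 0.56, edgeR adjusted p = 0.0496) was close to the limit, overlapped, and lost its call in 10 of the 12 fits without 1 library (all but those without MSCV_plko of experiment 3 or 2), without experiment 1, without experiment 2, with RLE scaling, with limma-voom and in the replicate block. Reads of these neighbouring and similar protease genes may be shared between them.

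**Figure D3:**
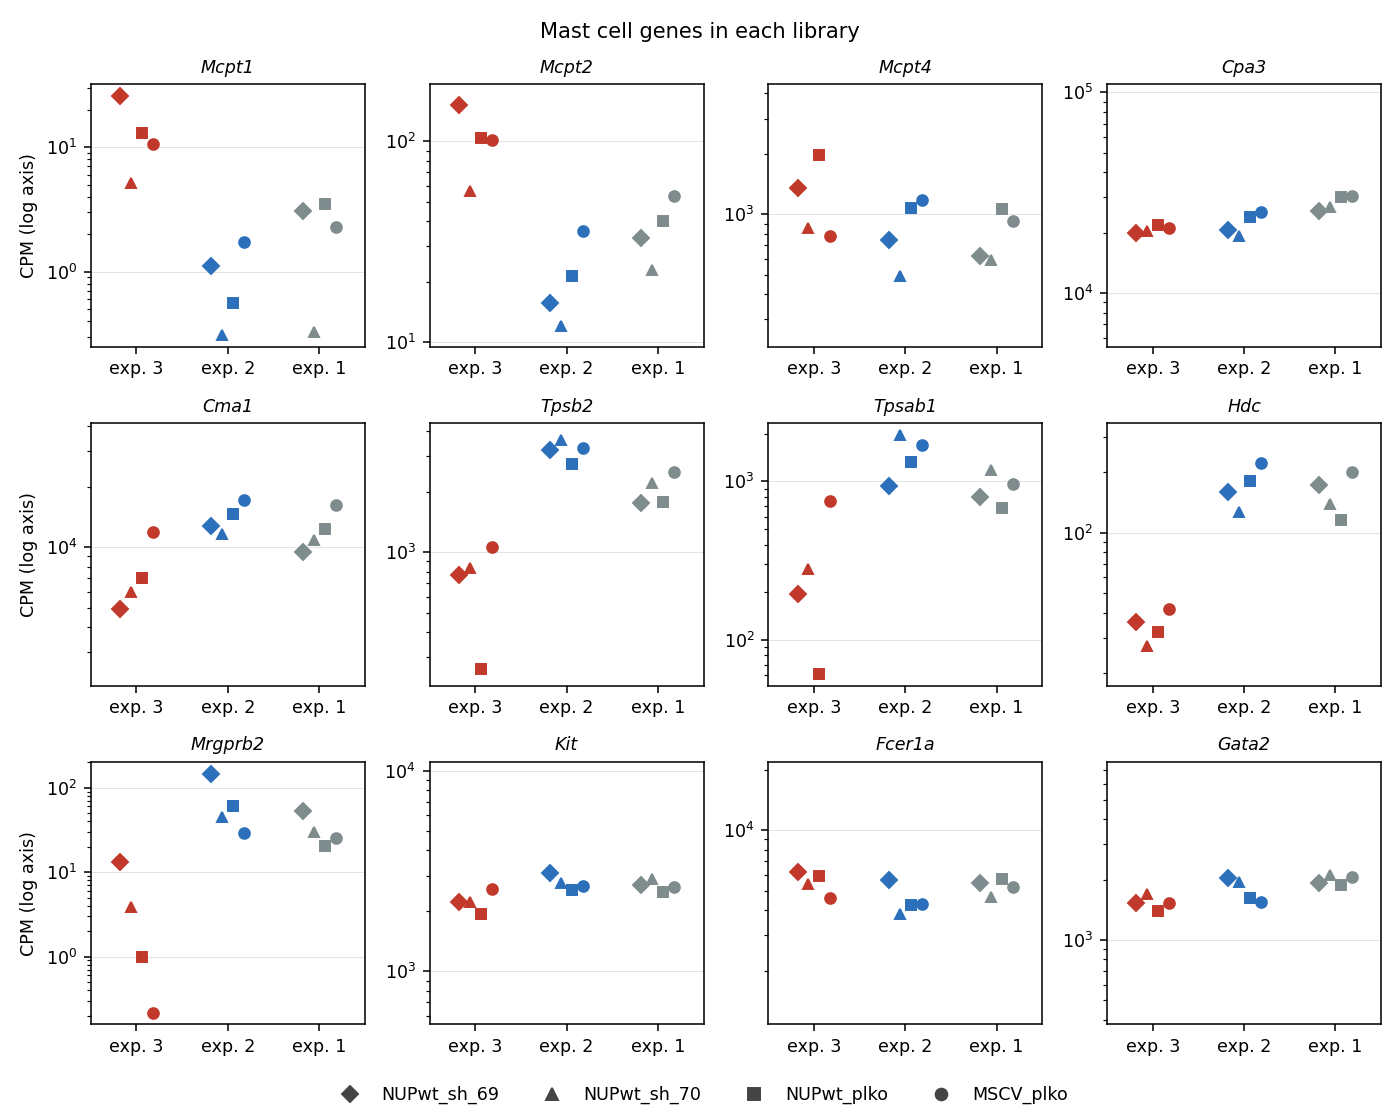
CPM (log axis) of 12 mast cell genes in each library, experiment 3 on the left of each panel; symbols give the group. Mcpt1 and Mcpt2 are higher in experiment 3, Tpsb2 and Hdc are lower without overlap, and Fcer1a and Cpa3 overlap between the experiments.

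Of the 17 genes of granule matrix, amines and eicosanoids, 5 were called lower, against 16.4% of all genes tested, and 2 higher, against 11.9% (median log2 difference -0.10). The higher count does not stand out from all genes. Histidine decarboxylase (Hdc), which makes histamine, had 35.8, 27.3, 31.99 and 41.7 CPM in experiment 3 against a lowest value of 116, a median of 167 and a highest of 223 CPM in experiments 1 and 2 (log2 difference -2.26 ± 0.12 (SE), edgeR adjusted p = 3.2e-06). Tryptophan hydroxylase (Tph1), which starts serotonin synthesis, had 3472, 3529, 3128 and 3604 CPM against 4029 to 5686 CPM (median 5050.1) (log2 difference -0.54, edgeR adjusted p = 0.0041), also without overlap. The vesicle amine transporter Slc18a2 had 955, 1360.1, 1357 and 1014 CPM against 1103 to 1662 CPM (median 1499) (log2 difference -0.34, edgeR adjusted p = 0.044), overlapped, and lost its call in 10 of the 12 fits without 1 library, all but those without MSCV_plko of experiment 2 or NUPwt_sh_69 of experiment 1. The prostaglandin synthase Ptgs2 was near 0 (0.417, 0.293, 0.392 and 0.217 CPM in experiment 3, 2.41 to 20.9 CPM in experiments 1 and 2). One of the higher genes encodes the granule membrane protein Cd63 (1334, 1373, 1572 and 1357 CPM against 941 to 1257 CPM (median 1193), lost without NUPwt_sh_69, NUPwt_sh_70 or NUPwt_plko of experiment 3 or NUPwt_sh_69, NUPwt_sh_70 or NUPwt_plko of experiment 2). The serglycin core (Srgn), heparin (Ndst2), leukotriene (Alox5) and prostaglandin D (Hpgds) genes were not called. A single higher call was left without NUPwt_sh_69, NUPwt_sh_70 or NUPwt_plko of experiment 3 or of experiment 2. There were 5 higher calls in the replicate block and 4 without experiment 1, and 8 lower calls without experiment 2.

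Of 17 tested mast cell receptor and signalling genes, 7 were called lower, against 16.4% of all genes tested, and 1 higher, against 11.9% (median log2 difference -0.17). The IgE receptor genes Fcer1a, Ms4a2 and Fcer1g had log2 differences of 0.18, 0.03 and -0.13, none called. The IL-33 receptor Il1rl1 had 3349.9, 3843, 2787 and 3501 CPM in experiment 3 against 4113 to 5692 CPM (median 4861) in experiments 1 and 2 (log2 difference -0.53, edgeR adjusted p = 0.0020), and the kinase Btk 301, 339, 290.2 and 384 CPM against 428 to 525 CPM (median 495) (log2 difference -0.56, edgeR adjusted p = 0.0013), both without overlap. Kit, the SCF receptor, had 2222, 2216, 1930.5 and 2584 CPM against 2497 to 3105 CPM (median 2673) (log2 difference -0.28, edgeR adjusted p = 0.030) and lost its call without NUPwt_sh_69, NUPwt_sh_70 or NUPwt_plko of experiment 3 or NUPwt_sh_69 of experiment 2. The receptors for basic secretagogues of connective tissue mast cells had the lowest log2 differences of the list: Mrgprb2 had 13.3, 3.81, 0.981 and 0.217 CPM against 20.1 to 145 CPM (median 37.3) and Mrgprb1 3.47, 4.99, 2.55 and 2.61 CPM against 16.4 to 69.2 CPM (median 33.1), and both were called (edgeR adjusted p = 0.0035 and 0.0013). Both were picked for their values. Higher calls in the list numbered 2 in the replicate block and without experiment 2, and 3 without experiment 1.

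All 12 mast cell transcription factor genes had a lower level in experiment 3, and 5 were called, against 16.4% of all genes tested. The list summed to 2658 to 3123 CPM in experiment 3 and 3309 to 3985 CPM in experiments 1 and 2, without overlap. Its median log2 difference was -0.30 and its lowest -2.93. The list also holds Spi1, Cebpa and Cebpb, genes of granulocyte and monocyte transcription factors as well. The part of neutrophils and monocytes in these differences was not tested. Gata2, which sets the mast cell lineage, had 1531, 1686, 1393 and 1532 CPM against 1539.5 to 2095 CPM (median 1927) (log2 difference -0.30, edgeR adjusted p = 0.038), overlapped, and lost its call without any library of experiment 3 or NUPwt_sh_69 of experiment 2 or NUPwt_sh_70, NUPwt_plko or MSCV_plko of experiment 1, without experiment 1, with no filter on low counts and with upper-quartile scaling. Tal1 had 309, 373, 324 and 357 CPM against 363 to 572 CPM (median 476) (lost without NUPwt_sh_69, NUPwt_sh_70 or NUPwt_plko of experiment 3), and Stat5b, which carries the signals of IL-3 and Kit, 166, 155, 131 and 167 CPM against 197 to 273 CPM (median 208) (log2 difference -0.50, edgeR adjusted p = 0.0059) without overlap. The list had 3 calls with upper-quartile scaling, 8 in the replicate block, 3 without NUPwt_sh_69 of experiment 3 or 2 or MSCV_plko of experiment 1, and 1 without NUPwt_sh_70 or NUPwt_plko of experiment 3.

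Cytokines and chemokines of activated mast cells were lower, 9 of 10 tested, against 16.4% of all genes tested, with a median log2 difference of -1.95. Tnf had 19.03, 26.1, 17.5 and 29.1 CPM in experiment 3 against 56.1 to 98.4 CPM (median 84.8) in experiments 1 and 2 (log2 difference -1.86 ± 0.16 (SE), edgeR adjusted p = 1.1e-04). Lif, an IL-6 family cytokine, had 66.9, 71.5, 121 and 103 CPM against 189 to 489 CPM (median 305) (log2 difference -1.81, edgeR adjusted p = 0.0018), and the chemokine Ccl7 27.9, 52.1, 39.6 and 5.65 CPM against 35.4 to 197 CPM (median 112). Tnf and Lif did not overlap, and Ccl7 did and lost its call without any library of experiment 3 or NUPwt_sh_69, NUPwt_sh_70 or NUPwt_plko of experiment 1. The list of cytokine receptor genes and STAT feedback genes was lower too, 10 of 13, against 16.4% of all genes tested. Its kinase gene Pim1 had 257, 203, 237 and 332 CPM against 382 to 654 CPM (median 461) (log2 difference -0.92, edgeR adjusted p = 0.0054). That count fell to 6 with limma-voom and without NUPwt_sh_70 of experiment 2, to 5 without NUPwt_sh_69 of experiment 3 or 2, MSCV_plko of experiment 3 or all empty-vector libraries, and to 4 without NUPwt_sh_70 or NUPwt_plko of experiment 3. Macrophages and neutrophils make several of these cytokines, and their lists moved in the same direction, as given above. Their part in the cytokine differences was not tested.

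Glycolysis genes were lower together. Of 21 tested, 15 were called lower, against 16.4% of all genes tested, and 1 higher, against 11.9%, with a median log2 difference of -0.75. Aldolase A (Aldoa, chr7:126795234-126809108, minus strand), which splits fructose bisphosphate, had 961, 1129.6, 991 and 1194 CPM in experiment 3 against a lowest value of 1950.0, a median of 2512 and a highest of 3048 CPM in experiments 1 and 2 (log2 difference -1.21 ± 0.13 (SE), edgeR adjusted p = 2.8e-04). Lactate dehydrogenase A (Ldha) had 1116, 1298, 1245 and 1352 CPM against 1591 to 2445 CPM (median 2107) (log2 difference -0.73, edgeR adjusted p = 0.0052), and pyruvate kinase (Pkm) 895, 927, 788 and 830.4 CPM against 1606 to 2465 CPM (median 2022) (log2 difference -1.25, edgeR adjusted p = 6.1e-04). None of the 3 overlapped, and each was called in all 12 fits without 1 library. The glucose transporter Slc2a1 and the lactate exporter Slc16a3 were lower (-1.12 and -1.89), and the monocarboxylate transporter Slc16a1 was the member that was higher (1.003). Against experiment 1 the list had a median of -0.98 and against experiment 2 of -0.70. The summed level was 6608, 7498, 6798 and 7265 CPM in experiment 3, against 11440.5, 11536, 11659 and 11523 CPM in experiment 2 and 15249, 15341, 15378 and 15803 CPM in experiment 1, in the same order of groups. The 4 groups lay within 6608 to 7498, 11440.5 to 11659 and 15249 to 15803 CPM, so each experiment formed its own level. The part of neutrophils and monocytes, whose sums are given above, in the glycolysis and hypoxia differences was not tested.

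Genes of the hypoxia response, which the transcription factor HIF-1 switches on when oxygen is short, were lower in experiment 3: 22 of 25 tested, against 16.4% of all genes tested, none higher, with a median of -1.23. Promoters are shown for 3 called members of this list and of the glycolysis list. They are those with the lowest adjusted p among the members whose window holds the core of the HIF binding site. The choice thus rests on the letters as well as on the difference. The letters ACGTG or GCGTG on either strand are in capitals, and the windows run 5′ to 3′ from 250 bases before to 50 after the start of the gene in RefSeq (GRCm38.p6). Egln3 lies at chr12:54203825-54204124 (minus strand), Ak4 at chr4:101419039-101419338 (plus strand) and P4ha1 at chr10:59323046-59323345 (plus strand).
Egln3: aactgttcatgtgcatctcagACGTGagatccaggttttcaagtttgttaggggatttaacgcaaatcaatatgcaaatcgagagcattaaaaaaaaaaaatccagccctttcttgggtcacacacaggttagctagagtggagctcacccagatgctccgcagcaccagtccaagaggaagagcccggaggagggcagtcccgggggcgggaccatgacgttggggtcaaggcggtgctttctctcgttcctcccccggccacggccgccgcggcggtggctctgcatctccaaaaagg
Ak4: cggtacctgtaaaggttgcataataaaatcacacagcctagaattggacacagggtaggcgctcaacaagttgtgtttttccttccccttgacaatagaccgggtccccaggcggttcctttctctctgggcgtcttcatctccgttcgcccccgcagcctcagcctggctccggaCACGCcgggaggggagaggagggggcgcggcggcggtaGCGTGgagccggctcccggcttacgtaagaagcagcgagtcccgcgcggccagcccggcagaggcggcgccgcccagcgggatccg
P4ha1: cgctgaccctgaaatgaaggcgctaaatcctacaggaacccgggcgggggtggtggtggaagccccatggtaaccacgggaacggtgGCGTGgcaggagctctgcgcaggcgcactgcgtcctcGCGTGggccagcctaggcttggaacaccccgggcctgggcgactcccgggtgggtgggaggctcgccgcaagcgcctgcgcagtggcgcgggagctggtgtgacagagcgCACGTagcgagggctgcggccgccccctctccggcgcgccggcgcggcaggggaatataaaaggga
The letters occurred 1 time in the Egln3 window, 2 times in Ak4 and 3 times in P4ha1. They were found in 16 of 20 hypoxia response windows (80.0%) and 15 of 20 glycolysis windows (75.0%). Of all 20741 genes with a window, 47.5% held them, as did 64.3% of the 9223 tested genes with a window and 13 of 20 TCA cycle windows (65.0%). A match describes the letters and is no evidence of binding.

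Egln3, an oxygen-sensing prolyl hydroxylase, had 9.58, 12.03, 7.65 and 2.61 CPM in experiment 3 against a lowest value of 43.4, a median of 87.9 and a highest of 109.7 CPM in experiments 1 and 2 (log2 difference -3.37 ± 0.15 (SE), edgeR adjusted p = 1.0e-06). Ak4, a mitochondrial adenylate kinase, had 1.39, 2.35, 1.77 and 0.217 CPM against a lowest value of 23.9, a median of 34.8 and a highest of 47.8 CPM (log2 difference -4.52, edgeR adjusted p = 6.2e-06). P4ha1, a collagen prolyl hydroxylase, had 84.6, 87.3, 69.9 and 87.5 CPM against 161 to 225 CPM (median 215) (log2 difference -1.32, edgeR adjusted p = 2.5e-05). All 4 libraries of experiment 3 lay below the 8 for each of these. Among the most abundant called members, Ndrg1 had 69.3, 79.5, 52.99 and 57.5 CPM against 270.4 to 422 CPM (median 317) (log2 difference -2.32, edgeR adjusted p = 1.1e-06), the circadian repressor Bhlhe40 281, 351, 365 and 366 CPM against 499 to 706 CPM (median 593), and the endoplasmic oxidase Ero1l 744, 810.2, 680.2 and 822 CPM against 862 to 1480.5 CPM (median 1066). Ero1l lost its call without NUPwt_sh_69, NUPwt_sh_70 or NUPwt_plko of experiment 3. Pdk1, which closes the entry of pyruvate into mitochondria, and the mitophagy receptor Bnip3 differed by -2.96 and -3.27. Ddit4, also induced by other stresses, was not called (152 to 215 CPM in experiment 3 and 136 to 258 CPM in experiments 1 and 2, log2 difference 0.0078). The list summed to 1902 to 2184 CPM in experiment 3, 3547 to 4186 CPM in experiment 2 and 3972 to 4675 CPM in experiment 1. Counts of called members stayed between 19 and 23 when any 1 library was left out.

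**Figure D4:**
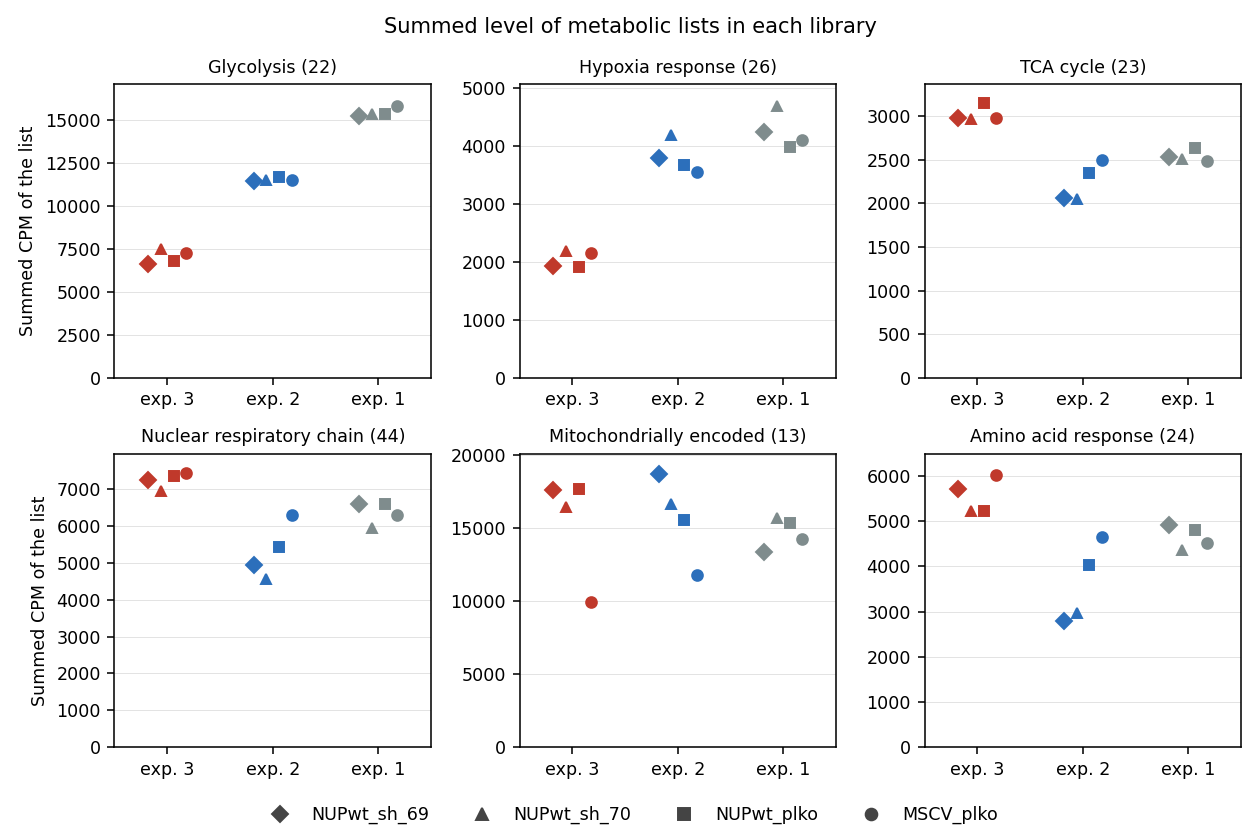
Summed CPM (linear axis from 0) of 6 metabolic gene lists in each library, with the number of listed genes in the file in brackets; experiment 3 is on the left of each panel and symbols give the group. Glycolysis and hypoxia response sums are lowest in experiment 3, TCA cycle, respiratory chain and amino acid response sums are highest there, and mitochondrially encoded sums overlap.

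Of 23 TCA cycle genes, 13 were called higher, against 11.9% of all genes tested, and none lower (median 0.32). Citrate synthase (Cs) had 317, 343, 374 and 372 CPM in experiment 3 against 205 to 311 CPM (median 273) in experiments 1 and 2 (log2 difference 0.39, edgeR adjusted p = 0.042), and the succinate dehydrogenase subunit Sdha 237, 216, 219.6 and 204 CPM against 169 to 191 CPM (median 183) (log2 difference 0.28, edgeR adjusted p = 0.011). Neither overlapped. The calls were less stable than those of glycolysis: Sdha was lost without NUPwt_sh_69 or NUPwt_plko of experiment 3, and Cs in 8 of the 12 fits without 1 library. Those fits left out any library of experiment 3, NUPwt_sh_69, NUPwt_plko or MSCV_plko of experiment 2, or MSCV_plko of experiment 1. The list had 5 calls without NUPwt_plko, 4 without NUPwt_sh_70 and 3 without NUPwt_sh_69 of experiment 3.

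Of 44 nuclear respiratory chain genes, 18 were higher, against 11.9% of all genes tested, and none lower (median 0.29). The ATP synthase subunit Atp5b had 1078, 1105, 1131 and 1104 CPM in experiment 3 against 646 to 986 CPM (median 865) in experiments 1 and 2 (log2 difference 0.41, edgeR adjusted p = 0.028). The cytochrome oxidase subunits Cox6a1 (253, 233, 206 and 219 CPM against 125 to 205 CPM (median 159)) and Cox8a (227, 243, 214 and 272 CPM against 169 to 224 CPM (median 195)) were higher with log2 differences of 0.48 and 0.30. Cox6a1 did not overlap and Cox8a did. The list had 38 calls in the replicate block, 39 without experiment 1 and 28 with upper-quartile scaling, but 9 without MSCV_plko, 8 without NUPwt_plko, 6 without NUPwt_sh_69 and 2 without NUPwt_sh_70 of experiment 3, and 8 without the empty-vector libraries. Atp5b was lost without any library of experiment 3, Cox8a without NUPwt_sh_69, NUPwt_sh_70 or MSCV_plko of experiment 3 and Cox6a1 without NUPwt_sh_70 of experiment 3. The genes of the mitochondrial genome did not follow: none of 7 tested was called, and mt-Co1 had 7026, 6928, 7233 and 4176 CPM in experiment 3 and 4755 to 8399 CPM in experiments 1 and 2.

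**Figure D5:**
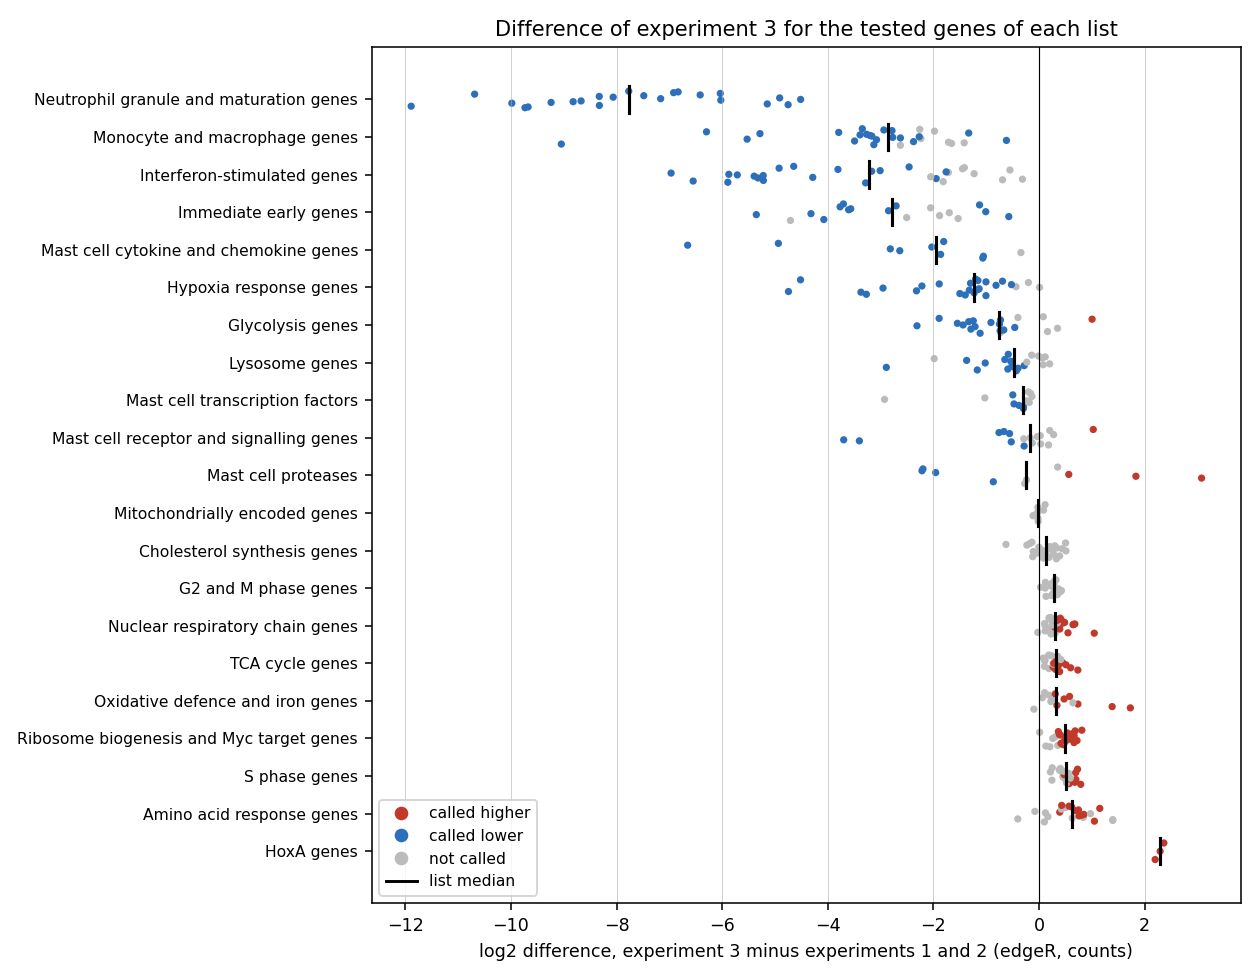
Difference of experiment 3 from experiments 1 and 2 (log2, edgeR) for each tested gene of 21 lists; points are genes, red called higher, blue called lower and grey not called, and the black bar is the list median. Lists of mature myeloid cells lie far to the left (neutrophil median -7.77), hypoxia response and glycolysis genes to the left of 0, and TCA cycle, respiratory chain, ribosome biogenesis and S phase genes slightly to the right; differences of genes with 0 counts in experiment 3 are not bounds.

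Of 23 genes of the amino acid response, which ATF4 drives when amino acids are short, 11 were higher, against 11.9% of all genes tested, and none lower (median 0.63). The leucine transporter Slc7a5 had 1187, 1033, 1043 and 1395 CPM in experiment 3 against 629 to 1115 CPM (median 925) in experiments 1 and 2 (log2 difference 0.39, edgeR adjusted p = 0.040). Seryl-tRNA synthetase (Sars) had 324, 304, 339.5 and 362 CPM against 148 to 275 CPM (median 245), and the serine hydroxymethyltransferase Shmt2 356, 277, 298 and 311 CPM against 105 to 253 CPM (median 185), both without overlap. Atf4 itself was not called (log2 difference 0.10). The list had 17 calls with no filter on low counts and 18 without experiment 1, against 3 without MSCV_plko or NUPwt_plko of experiment 3, 1 without either hairpin library of experiment 3 and 2 without the empty-vector libraries. Slc7a5 was lost without any library of experiment 3 or NUPwt_sh_70 of experiment 2 or NUPwt_plko or MSCV_plko of experiment 1, and Sars and Shmt2 without any library of experiment 3.

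Ribosome biogenesis and Myc target genes were higher in 18 of 25 cases (median 0.48), against 11.9% of all genes tested, whereas Myc was not called (0.012). The most abundant called member, the nucleolar protein gene Mybbp1a, had 225, 218, 234 and 197 CPM in experiment 3 against 134 to 213 CPM (median 164) in experiments 1 and 2 and lost its call without NUPwt_sh_69, NUPwt_sh_70 or NUPwt_plko of experiment 3, as well as without experiment 1. The list had 9 calls without NUPwt_sh_69, without NUPwt_sh_70 and without NUPwt_plko of experiment 3. Of 25 S phase genes 10 were called higher (median 0.51), against 11.9% of all genes tested. Among them was the replicative helicase subunit Mcm3 with 332, 316, 311 and 373 CPM against 143 to 279 CPM (median 235) (log2 difference 0.57, edgeR adjusted p = 0.029), lost without any library of experiment 3 or NUPwt_plko of experiment 2. The S phase count was 23 in the replicate block and without experiment 1, 22 with no filter on low counts, 18 without NUPwt_sh_69 of experiment 1 and 17 without experiment 2. It was 4 without MSCV_plko, 3 without NUPwt_plko, 1 without NUPwt_sh_70 and 0 without NUPwt_sh_69 of experiment 3, and 3 without the empty-vector libraries. None of 21 G2 and M phase genes was called (median 0.28), with Mki67 at 470.2 to 579 CPM in experiment 3 and 382 to 595 CPM in experiments 1 and 2. That list had 4 calls in the replicate block, 15 without experiment 1, 2 without experiment 2, 9 with no filter, and 3 without NUPwt_sh_69 or NUPwt_sh_70 of experiment 1.

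Of 14 genes of oxidative defence and iron storage, 7 were higher, against 11.9% of all genes tested, and none lower (median 0.32). The quinone reductase Nqo1, a classic target of NRF2, had 381, 277, 278 and 231 CPM in experiment 3 against a lowest value of 49.2, a median of 75.6 and a highest of 157 CPM in experiments 1 and 2 (log2 difference 1.73 ± 0.26 (SE), edgeR adjusted p = 0.0022). The glutathione synthesis subunit Gclm had 225, 116, 145 and 147 CPM against a lowest value of 38.96, a median of 56.7 and a highest of 115 CPM (log2 difference 1.38 ± 0.18 (SE), edgeR adjusted p = 0.0010). The highest of the 8 was NUPwt_sh_69 of experiment 1, and all 4 were above it. Ferritin light chain (Ftl1), thioredoxin reductase (Txnrd1) and catalase (Cat) had log2 differences of 0.58, 0.73 and 0.31. Haem oxygenase (Hmox1), another NRF2 target, was not called (-0.10). The count was 4 without NUPwt_sh_69, NUPwt_sh_70 or MSCV_plko of experiment 3 and without the empty-vector libraries, and Cat was lost without any library of experiment 3.

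Cholesterol synthesis genes were not called in either direction (24 tested, median 0.13). The list had 5 higher calls in the replicate block and without NUPwt_sh_69 of experiment 1, 7 with no filter and 19 without experiment 1, and 4 lower ones without experiment 2. Of 12 fatty acid synthesis genes, 4 were higher, against 11.9% of all genes tested. The acetyl-CoA synthetase Acss2 had 161, 249, 253 and 291 CPM against 71.4 to 136 CPM (median 101) (log2 difference 1.19, edgeR adjusted p = 0.0018), and the elongase Elovl6 22.5, 40.2, 45.1 and 34.7 CPM against 11.7 to 24.4 CPM (median 20.2) (log2 difference 0.87, edgeR adjusted p = 7.3e-04). Acaca, which makes malonyl-CoA, had a log2 difference of 0.48 and lost its call without any library of experiment 3 or NUPwt_sh_70 of experiment 2 or NUPwt_sh_69 or NUPwt_sh_70 of experiment 1. The list had 2 calls without NUPwt_sh_70 of experiment 3 or the empty-vector libraries.

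Lysosome genes were lower in 12 of 20 cases (median -0.47), against 16.4% of all genes tested. Cathepsin D (Ctsd) had 1750.3, 1595, 1488 and 1966 CPM in experiment 3 against 1969 to 2746 CPM (median 2214) in experiments 1 and 2 (log2 difference -0.43, edgeR adjusted p = 0.0045). Prosaposin (Psap) had 479.5, 646, 442 and 502 CPM against 468 to 2560.5 CPM (median 1323), and the autophagy receptor Sqstm1 802, 655, 553 and 808 CPM against 832 to 1339 CPM (median 1016). Psap overlapped and was lost without NUPwt_sh_70, NUPwt_plko or MSCV_plko of experiment 3 or NUPwt_sh_69 of experiment 2 and without experiment 2, and Sqstm1 was lost without NUPwt_sh_70 of experiment 3. Macrophages are rich in lysosomes, and the part of the monocyte list in these differences was not tested. Calls fell to 7 without NUPwt_sh_69 of experiment 2 or without experiment 2, to 5 without MSCV_plko or NUPwt_plko of experiment 3 or the empty-vector libraries, and to 4 without NUPwt_sh_70 of experiment 3.

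Interferon-stimulated genes were lower in 19 of 28 cases, against 16.4% of all genes tested, none higher (median -3.23). Irf7, a transcription factor of the interferon response, had 1.94, 6.31, 4.32 and 4.78 CPM in experiment 3 against a lowest value of 25.6, a median of 128 and a highest of 549 CPM in experiments 1 and 2 (log2 difference -5.22 ± 1.10 (SE), edgeR adjusted p = 0.011). The high values came from experiment 2 (in the order given, 219.9, 155, 549 and 196 CPM), against 97.3, 101, 25.6 and 27.002 CPM in experiment 1. Accordingly 26 genes were called lower against experiment 2 (median -3.91) and 12 against experiment 1 (median -2.24), and 18 were higher in experiment 2 than in experiment 1. The list summed to 324 to 408 CPM in experiment 3, 1492 to 3871 CPM in experiment 2 and 446 to 982 CPM in experiment 1. Calls dropped to 10 without NUPwt_sh_70 and 8 without NUPwt_sh_69 of experiment 2. They dropped to 8 without MSCV_plko, 6 without NUPwt_sh_69 and 2 without NUPwt_sh_70 or NUPwt_plko of experiment 3, and to 2 with limma-voom. Neutrophil and monocyte sums were also highest in experiment 2, and their part in this was not tested.

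Immediate early genes, which cells switch on within minutes of a stimulus, were lower in 12 of 18 cases (median -2.78), against 16.4% of all genes tested. Ier3 had 360.0, 352, 482 and 499 CPM in experiment 3 against 558 to 1203 CPM (median 924) in experiments 1 and 2 (log2 difference -1.01, edgeR adjusted p = 0.0092) and was lost without NUPwt_sh_70 of experiment 3. Nr4a1 and Klf6 were lower without overlap (12.2 to 15.1 against 82.6 to 249 CPM, and 157 to 204 against 317 to 465 CPM). Fos differed from experiment 2 by -5.70 and from experiment 1 by -0.70 and was not called in the main contrast (edgeR adjusted p = 0.070), with 1037, 741, 435 and 327 CPM in experiment 2 and 19.3, 19.9, 14.2 and 19.9 CPM in experiment 1. The list summed to 1388 to 1699.9 CPM in experiment 3, 5807 to 10342 CPM in experiment 2 and 2236 to 4507 CPM in experiment 1. Its count was 7 without NUPwt_sh_69 or NUPwt_sh_70 of experiment 2, without MSCV_plko or NUPwt_plko of experiment 3 and with limma-voom, and 6 without NUPwt_sh_70 of experiment 3. Nr4a1, Klf6 and Fos were picked for their values.

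Targets of p53 were called in both directions, with 5 of 12 higher, against 11.9% of all genes tested, and 5 lower, against 16.4%. Cdkn1a, a cell cycle inhibitor, had 393, 419, 384 and 337 CPM in experiment 3 against 394 to 615 CPM (median 570.0) in experiments 1 and 2 (log2 difference -0.44, edgeR adjusted p = 0.018) and was lost without NUPwt_sh_70, NUPwt_plko or MSCV_plko of experiment 3. Zmat3 was higher, with 118, 113, 119 and 75.6 CPM against 29.3 to 56.8 CPM (median 47.5) (log2 difference 1.20, edgeR adjusted p = 5.6e-04). Cdkn2a is not in the list of p53 targets and was named for its large difference. It encodes the inhibitors p16 and p19 and is known to build up in cultured cells. It was also higher, with 39.9, 51.5, 44.2 and 35.6 CPM against 8.09 to 29.02 CPM (median 12.3) (log2 difference 1.39, edgeR adjusted p = 0.016). Cdkn2a lost its call without NUPwt_sh_70, NUPwt_plko or MSCV_plko of experiment 3. The lower p53 targets numbered 3 without MSCV_plko of experiment 1 or NUPwt_plko or NUPwt_sh_70 of experiment 2, and 2 without NUPwt_sh_70, NUPwt_plko or MSCV_plko of experiment 3 or the empty-vector libraries. Of 15 unfolded protein response genes, 3 were higher, against 11.9% of all genes tested, and 2 lower, against 16.4%, so neither count stands out from all genes. The higher ones included the chaperones Hyou1 (0.33) and Sdf2l1 (0.50), and the lower ones the regulator Xbp1 (199, 198, 197 and 190.2 CPM against 248 to 308 CPM (median 265), log2 difference -0.45, edgeR adjusted p = 0.0028). The higher ones numbered 6 in the replicate block, 7 without experiment 1, 1 without NUPwt_plko and 0 without NUPwt_sh_69 or NUPwt_sh_70 of experiment 3 or the empty-vector libraries. The lower ones numbered 1 without NUPwt_sh_70 of experiment 3 or without experiment 2. Hyou1 was lost in 9 of the 12 fits without 1 library, all but those without MSCV_plko of experiment 2 or NUPwt_sh_69 or NUPwt_sh_70 of experiment 1, and Sdf2l1 without NUPwt_sh_69 or NUPwt_sh_70 of experiment 3.

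The remaining genes with the largest positive differences came from no single list. The mucin Muc13 had 228, 276, 373 and 181 CPM in experiment 3 against 42.2 to 127 CPM (median 82.3) in experiments 1 and 2 (log2 difference 1.58, edgeR adjusted p = 0.0038). The endosomal exchanger Slc9a9 had 29.3, 25.97, 26.9 and 19.3 CPM against 3.73 to 14.04 CPM (median 8.19), and the membrane antigen gene Ly6e 2979, 2936, 3158 and 1884 CPM against 647 to 1463 CPM (median 1173). The amino acid enzymes Gcat and Fah had log2 differences of 1.36 and 1.32, and the transporter Slc22a23 of 1.24. All 6 were above the 8 libraries of experiments 1 and 2 in every library of experiment 3. Slc22a23 lost its call without NUPwt_sh_70, NUPwt_plko or MSCV_plko of experiment 3, and Fah without the empty-vector libraries.

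None of 4 tested sex-linked genes was called, and the Y-linked Ddx3y had 57.3 to 109 CPM in experiment 3 and 72.4 to 155 CPM in experiments 1 and 2. None of 3 nuclear-retained RNAs, which rise when nuclear RNA is enriched, was called, with Neat1 at 439 to 795 CPM in experiment 3 and 602 to 1444 CPM in experiments 1 and 2. However, 2 of them were called lower against experiment 2, without experiment 1 and with no filter on low counts, and 2 were called higher in experiment 2 than in experiment 1. Malat1 had 327, 402, 444 and 292 CPM in experiment 3, 1143, 1689, 1235 and 883 CPM in experiment 2 and 151, 265, 205 and 298 CPM in experiment 1. Nup98 and Nsd1, whose counts may include reads of the fusion, had 288, 259, 241 and 103 CPM and 907, 791, 745 and 139 CPM in experiment 3. Nup98 ranged over 124 to 408 CPM in experiments 1 and 2 (log2 difference -0.33, edgeR adjusted p = 0.033), overlapped, and lost its call without any library of experiment 3 or NUPwt_sh_69 or NUPwt_plko of experiment 2. Nsd1 ranged over 185 to 966 CPM in experiments 1 and 2 and was not called.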

How the data were processed

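Cultured mouse bone marrow cells gave 12 RNA-seq libraries, 3 in each of 4 groups. Per the labels' protocols, 1 µg of RNA went into a stranded mRNA kit and was read as single 75 nt reads. Per the submitters' processing notes, Trimmomatic 0.32, STAR 2.5.3a, featureCounts and the build mm10 were used. For featureCounts, the version and strand setting were not found in the labels or processing notes, nor was the annotation release. The authors deposited raw counts per gene, and 31694 of 55376 genes had no count in any library. Without the strand setting, a gene and an antisense partner cannot be told apart, and near-identical copies (Mcpt and Tps proteases, Ly6c1 and Ly6c2, H2 genes) may share reads.

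Counts were tested with the edgeR (4.0.16, R 4.3.3) quasi-likelihood F-test after filterByExpr and TMM scaling, with group as a block and Benjamini-Hochberg adjustment over 11994 genes. Experiments 1 and 2 formed 1 level, so their difference from each other stayed in the residual spread. Genes with 3 or fewer counts in the whole of experiment 3 passed filterByExpr only through libraries of experiments 1 and 2. Other settings were RLE and upper-quartile scaling, no filter, DESeq2 1.42.0, limma-voom (limma 3.58.1), a replicate block (the replicate number as a term with 3 levels), and leaving out each library, experiment or the empty-vector group. The counts of gene lists under these settings were added after seeing the data.

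The replicate numbers were checked after subtracting group means: the 18 same-number pairs had a median r of 0.74 and the 36 other pairs of -0.20, and 98.3% of the first principal component (70.7% of the residual variance) was explained by the number. The scripts were tested on simulated data.

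Genes named were 6 fixed ones (Ngp, Camp, Lyz2, Aldoa, Hoxa9 and Zkscan17), the 12 with the largest difference in each direction among genes called against both experiments together and against each, at 20 CPM or more and without overlap, and the most abundant called members of each list (3, or 1 for some lists). Any other gene named was chosen after its values were seen. Some genes that met the rule are not reported here. Members and lists were chosen with earlier results of these data known. Intervals and the limit of 3 counts cover counting error only. No label says that libraries came from separate animals.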

Additional observations from a re-analysis of the deposited data

Results flagged for a closer look

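A single library stood apart from the rest of its set, by Dixon's criterion at 95%, for 16 named genes, where chance flags about 1 in 20 sets.

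In experiment 3, MSCV_plko was the library that stood apart for 5 genes: Zmat3 with 75.6 CPM, Blnk with 4.99 CPM, Hoxa10 with 0 CPM, mt-Co1 with 4175.9 CPM and Ddx3y with 57.3 CPM. It was the low library for each of these except Blnk. MSCV_plko was also the only library of experiment 3 without the fusion, and Hoxa10 had 0 CPM in every MSCV_plko library. NUPwt_sh_69 was the low library of experiment 3 for Slc22a23, with 27.4 CPM, and the high one for Erg, with 78.9 CPM. NUPwt_sh_70 was high for Car2 (39.3 CPM) and NUPwt_plko for Cd63 (1572.5 CPM).

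Among the 8 libraries of experiments 1 and 2, MSCV_plko of experiment 2 was high for both eosinophil granule genes, Prg2 with 125 CPM and Epx with 43.0 CPM. NUPwt_plko of experiment 2 was high for Ly6c2, with 132 CPM, and for the interferon gene Irf7, with 549 CPM. NUPwt_sh_69 of experiment 1 was high for Gclm, with 115 CPM. NUPwt_plko of experiment 1 was low for Tnf, with 56.1 CPM, and MSCV_plko of experiment 1 was high for Xbp1, with 308 CPM.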

How the results depend on the processing

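With all libraries experiment 3 had 1426 genes higher and 1967 lower than experiments 1 and 2. The replicate block gave 2493 higher genes, the fit without experiment 1 gave 2536 higher and 2962 lower, and the fit without the empty-vector libraries gave 887 higher. RLE and upper-quartile scaling, no filter, DESeq2, limma-voom and leaving out experiment 2 kept both counts within 1.5 times, and 42.0% of calls were higher with TMM against 50.5% with upper-quartile scaling. Leaving out 1 library gave 383 to 1605 higher and 826 to 2246 lower genes, 1832 to 3561 calls between experiments 3 and 1, 4548 to 6308 between 3 and 2, and 1672 to 3568 between 2 and 1. The lowest higher counts came without NUPwt_sh_70 (383), NUPwt_sh_69 (584) or NUPwt_plko (629) of experiment 3. The fusion and empty-vector difference had 0 calls in edgeR and in each of 11 fits without 1 library (0 to 0; without MSCV_plko of experiment 3 it cannot be estimated), 142 with no filter and 17 with DESeq2. The cause was not tested.

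Of 98 named genes that were called, 37 kept their call in all 21 alternatives. Limma-voom ended 24 calls, among them those of Ngp and Camp. Signs turned only for 4 genes that were not called. Zkscan17 was at -0.037 and Car2 at -0.027 without experiment 2. Tek was at -0.26 without experiment 1, at -0.30 without the empty-vector libraries and between -0.28 and 0.24 without single libraries. The gene mt-Co1 was at 0.0080 with upper-quartile scaling, 0.10 without experiment 2, 0.055 without the empty-vector libraries and between -0.10 and 0.076 without single libraries. At these depths, 3 counts are 0.417 to 0.837 CPM, so absence of a transcript is limited to that level.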

Other observations

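Of the 1426 genes called higher in experiment 3, 6 differed by 3 or more on the log2 scale. They were chosen after their values were seen, so no p-values are given here. Mcpt1 is described with the mast cell proteases. Kcnc1, a voltage-gated potassium channel, had 44.02, 49.3, 41.6 and 0.217 CPM in experiment 3 (NUPwt_sh_69, NUPwt_sh_70, NUPwt_plko and MSCV_plko), against 0 to 4.60 CPM (median 1.65) in experiments 1 and 2 (log2 difference 4.14). Pcolce2, an enhancer of procollagen processing, had 5.14, 7.04, 3.34 and 0 CPM in experiment 3, against 0 to 0.438 CPM (median 0) in experiments 1 and 2 (log2 difference 4.70). Sytl5, of the synaptotagmin-like family, had 2.4997, 2.05, 2.55 and 1.52 CPM in experiment 3, against 0 to 0.309 CPM (median 0.0815) in experiments 1 and 2 (log2 difference 3.93). In each library of experiments 1 and 2, Pcolce2 and Sytl5 lay under 3 counts, so their log2 differences are not exact. Pcolce2, Sytl5 and Mrgpra9 (described below) passed the filter on low counts only through libraries of experiment 3.

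The gap junction gene Gja5 had 11.7, 14.1, 10.01 and 2.61 CPM in experiment 3, against 0 to 2.12 CPM (median 0.666) in experiments 1 and 2 (log2 difference 3.37). Mrgpra9, a receptor of the Mas-related family, had 3.19, 3.67, 8.05 and 1.30 CPM in experiment 3, against 0 to 1.09 CPM (median 0.340) in experiments 1 and 2 (log2 difference 3.001).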
